A study of Homo sapiens with 24 samples.

Results

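The genes described here encode 30 enzymes that make nucleotides or supply the sugar phosphate they are built on. They were picked by symbol from the 39786 genes of the deposited count table and fall into 12 enzymes of purine synthesis, 6 of pyrimidine synthesis, 6 of deoxynucleotide supply and 6 of the pentose phosphate pathway. The listing itself went by symbol only, but the members were chosen with earlier results of these data known. Of the 30, 29 passed the filter on low counts in each cell line and were tested, and TKT did not.

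Messenger RNA was sequenced from 24 libraries of 2 human cancer cell lines that form 8 groups of 3 libraries. Of these lines, 5637 was derived from bladder carcinoma and OVCAR8 from carcinoma of the ovary. Both existed as parental cells and as cells resistant to neratinib (NR), and each of these was given neratinib or control for 24 h, at 600 nM in 5637 and at 1 µM in OVCAR8. Neratinib is an irreversible inhibitor of the EGFR and ERBB2 (HER2) receptor kinases. NR cells had spent 1 week without drug before seeding, so the NR control groups are resistant cells away from the drug. The dose differed between the lines, so a difference in drug effect between them cannot be told apart from the dose. Each NR line is a single derivative, and the dishes were seeded in triplicate, so p-values measure only the spread between these samples, which may be technical.

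Cells build purines by adding atoms in turn to a ribose phosphate until inosine monophosphate (IMP) is made, from which separate branches lead to adenine and guanine nucleotides. Pyrimidines are assembled as a ring first and joined to the ribose phosphate afterwards, giving UMP and then CTP. Ribonucleotide reductase turns ribonucleotides into the deoxynucleotides needed for DNA, and thymidylate synthase and its neighbours supply the thymine form. The pentose phosphate pathway makes ribose phosphate from glucose, and its oxidative steps also make NADPH. Growth factor signalling, MYC and mTORC1 are known to raise many of these enzymes, and the deoxynucleotide group is known to peak with DNA replication.

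Library totals ran from 23.8 M to 48.5 M counts, so members other than TKT carried at least 325 counts in every library. Levels are normalised CPM (each count as a share of the library, on the usual CPM scale), scaled to the library total with TMM factors that correct for composition. The members together took 0.282% to 0.476% of a library's counts. OVCAR8 parental control replicate 2 stood apart. Genes longer than 8 kb held 14.1% of its counts, against 21.2% and 20.7% in the other parental controls. With this library the biological coefficient of variation of the OVCAR8 fit was 13%, and leaving it out lowered that to 4.37% (5637, 8.03%). It was kept, and the number of members called in each OVCAR8 comparison is also given without it. Of the urothelial markers KRT5 was at 4090 CPM in 5637 parental control and 569 CPM in 5637 NR control, while the 3 uroplakins of the list were low (UPK2 at most 3.04 CPM). The list did not move as one: of 6 urothelial markers tested, 3 were lower and 2 higher in 5637 NR control than in parental control (log2 -2.87 to 0.71). Of all genes, 56.5% were called in that comparison (28.4% higher, 28% lower). In OVCAR8 the Müllerian marker PAX8 was at 70.3 to 150 CPM, whereas MUC16, EMX2 and SOX17 were near 0. The epithelial cadherin CDH1 was at 0.663 CPM or less in OVCAR8, but other epithelial markers were high. The 5 epithelial markers of the list, CDH1 included, together reached 3150 to 5550 CPM in OVCAR8 parental control and 6980 to 7520 CPM in 5637 parental control. Summed over the 5 Müllerian markers of the list, 5637 parental control stood higher (272 to 403 CPM) than OVCAR8 parental control (139 to 156 CPM). That list therefore did not set OVCAR8 apart from 5637. Summed fibroblast markers were at 1210 to 1260 CPM in OVCAR8 parental control and 152 to 157 CPM in 5637 parental control. Of the 5 fibroblast markers in these sums, only 2 passed the filter in the OVCAR8 fit without parental control replicate 2. Summed leukocyte markers were at most 0.264 CPM in 5637 and 4.03 CPM in OVCAR8.

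Transketolase (TKT, ENSG00000163931.11, hg19 chromosome 3, 53258723 to 53290068), which moves carbon units between sugar phosphates, was listed at 0 to 4 counts in every library. Dividing cells are known to use this enzyme, so the value is not read as absence, and the cause was not tested. No fold change is given for it. NME1 overlaps a readthrough gene with its neighbour, and TYMS, GART, ADSL, PFAS and RPE overlap other genes. Whether counting used strand is not given in the sources used here, so reads of such overlaps cannot be told apart.

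Scaled by gene length, PGD was the highest of the members in 5637 parental control, at 104 ± 2.84 CPM per kb (SD, n = 3). PAICS, RRM2, TK1 and TALDO1 followed at 68.1 ± 2, 67.8 ± 1.5, 67.2 ± 1.4 and 65.9 ± 1.14 CPM per kb, and these 4 neighbours lay within their spreads. DHODH was lowest at 2.95 ± 0.499 CPM per kb, below PPAT at 4.91 ± 0.366. In OVCAR8 parental control the order was led by TK1 at 242 ± 75.6, IMPDH2 at 209 ± 45.9 and PAICS at 160 ± 5.6 CPM per kb, and the spreads of neighbours in this order overlapped. CTPS2 was lowest in OVCAR8 parental control at 2.45 ± 0.135 CPM per kb. These OVCAR8 means and SDs include replicate 2, the library that stands apart. Against 5637 parental control, TK1 and IMPDH2 were higher by 1.85 and 1.78 on the log2 scale with it. Without it they were higher by 1.56 and 1.59.

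Promoter sequence is shown for a few members: the shared promoter of PPAT and PAICS, whose mRNAs both fell on the drug, and the promoters of NME1, TYMS and DUT. The windows run from 250 bases before to 50 bases after the start site in RefSeq (GRCh38.p14), and capitals mark the words CACGTG (the E-box bound by MYC and its relatives) and TTTCCCGC or TTTGGCGC on either strand (E2F words, which read GCGGGAAA or GCGCCAAA on the other strand).
PPAT (chr4:56435566-56435865, minus strand): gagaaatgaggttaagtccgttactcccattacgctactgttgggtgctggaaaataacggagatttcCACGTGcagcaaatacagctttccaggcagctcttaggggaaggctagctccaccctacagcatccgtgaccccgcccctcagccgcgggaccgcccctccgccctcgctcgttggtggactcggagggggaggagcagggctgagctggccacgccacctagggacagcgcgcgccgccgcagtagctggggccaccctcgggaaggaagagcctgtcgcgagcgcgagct
PAICS (chr4:56435502-56435801, plus strand): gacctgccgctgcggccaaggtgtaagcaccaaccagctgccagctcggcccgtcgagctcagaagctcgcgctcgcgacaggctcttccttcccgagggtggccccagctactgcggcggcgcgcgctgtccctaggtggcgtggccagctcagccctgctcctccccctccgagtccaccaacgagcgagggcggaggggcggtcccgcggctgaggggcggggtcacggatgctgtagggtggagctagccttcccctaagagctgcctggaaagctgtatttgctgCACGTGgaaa
NME1 (chr17:51153309-51153608, plus strand): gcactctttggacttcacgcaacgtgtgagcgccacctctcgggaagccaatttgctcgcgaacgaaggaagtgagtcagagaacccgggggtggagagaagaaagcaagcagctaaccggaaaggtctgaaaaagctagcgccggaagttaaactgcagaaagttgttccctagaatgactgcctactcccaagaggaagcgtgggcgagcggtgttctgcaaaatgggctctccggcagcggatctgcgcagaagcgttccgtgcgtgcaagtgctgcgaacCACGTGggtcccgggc
TYMS (chr18:657403-657702, plus strand): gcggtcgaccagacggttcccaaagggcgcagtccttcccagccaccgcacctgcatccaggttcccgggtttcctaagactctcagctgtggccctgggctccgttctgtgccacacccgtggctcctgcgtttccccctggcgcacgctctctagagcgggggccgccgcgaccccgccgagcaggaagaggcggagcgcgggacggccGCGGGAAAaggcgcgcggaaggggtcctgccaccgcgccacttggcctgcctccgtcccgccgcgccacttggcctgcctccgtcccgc
DUT (chr15:48331947-48332246, plus strand): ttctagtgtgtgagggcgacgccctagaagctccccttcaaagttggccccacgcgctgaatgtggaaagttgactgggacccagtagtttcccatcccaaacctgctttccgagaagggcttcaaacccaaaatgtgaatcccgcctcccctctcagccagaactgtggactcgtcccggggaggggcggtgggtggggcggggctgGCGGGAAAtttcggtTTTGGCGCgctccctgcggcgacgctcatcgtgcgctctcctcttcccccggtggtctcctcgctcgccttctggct

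PPAT and PAICS, the first step and a later double step of purine synthesis, are read in opposite directions from start sites 137 bases apart. RefSeq lists 3 start sites for PAICS and 4 for DUT, and the one shown is the only one of each gene whose window holds a marked word. The PPAT and PAICS windows shown share 236 of 300 bases, and the single E-box in each is the same site, 182 bases before the PPAT start and 40 bases after the PAICS start. Among the 28 members with a RefSeq promoter (ADSL and IMPDH2 had none in the table, and ADSS was matched as ADSS2), 5 held CACGTG (PPAT, PAICS, ATIC, DHODH and NME1), which is 17.9%, against 8.77% of 27305 genes. An E2F word (TTTCCCGC, TTTGGCGC, TTTCGCGC or TTTGCCGC) was present in 4 (PRPS2, GART, TYMS and DUT), or 14.3%, against 3.99% of all genes. TYMS has its word 39 bases before the start and DUT has 2, at 42 and 27 bases before it. TGACNNNGC, the core of the element bound by NRF2, was found in 6 members or 21.4%, against 16.1% of genes. TGATGNAA, a core of the element bound by ATF4, was found in 0 of 28, against 4.46% of genes. A gene counted when the window of any of its listed start sites held the word. Both strands were searched, and a match is a description of letters, not of binding.

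Neratinib lowered most of the enzymes in parental 5637 cells. Of 29 members tested, 23 fell and 1 rose at an edgeR adjusted p under 0.05, where 47.3% of all 18307 genes were called (23.5% lower, 23.9% higher). The median log2 fold change of the members was -0.51, against 0.02 for all genes. By pathway, 11 of 12 purine, 5 of 6 pyrimidine and all 6 deoxynucleotide enzymes fell, while of 5 pentose phosphate enzymes 1 fell, 1 rose and 3 did not pass. Scaled by library size alone, 20 members fell and 2 rose. That scaling moves the median of all genes to 0.13 and their split from 4368 higher and 4297 lower to 5763 and 3212.

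**Figure D1:**
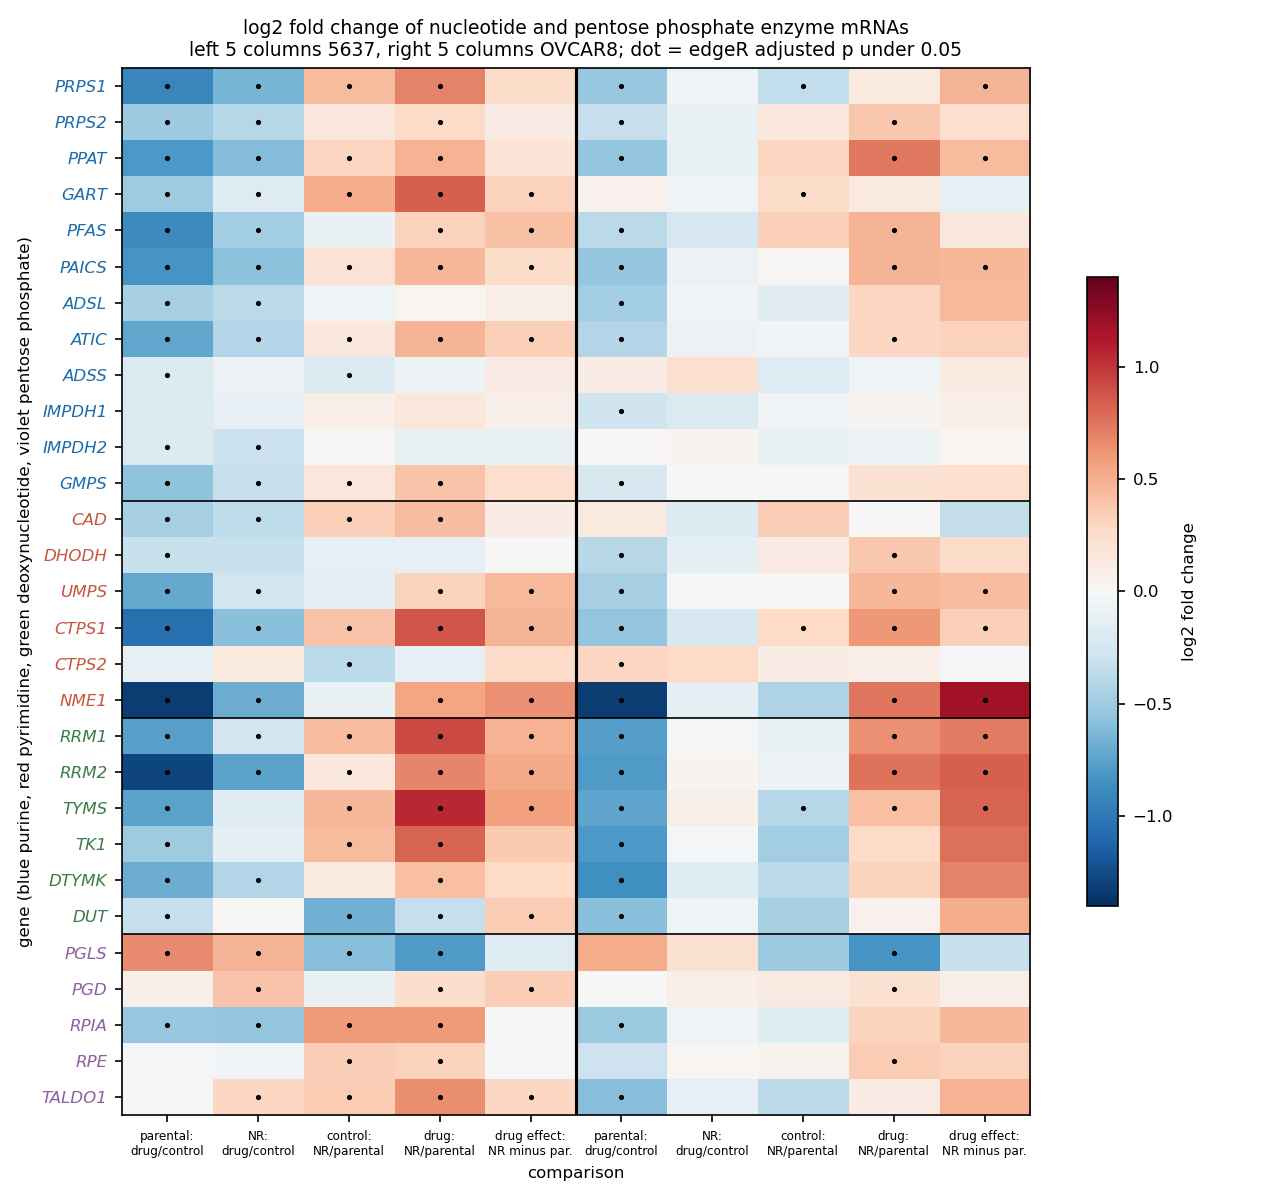
log2 fold change of 29 enzyme mRNAs (rows, grouped by pathway) in 5 comparisons of 5637 (left) and 5 of OVCAR8 (right), with a dot where the edgeR adjusted p was under 0.05. The first column of each line is mostly blue, with 23 members lower in 5637 and 21 in OVCAR8 (where 3 purine and 2 pyrimidine members lie above 0), and the second column (NR cells) is paler, with 18 lower in 5637 and 0 in OVCAR8.

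In the purine pathway PRPS1, the synthetase that activates ribose phosphate, stood at 67, 66.8 and 63.7 CPM in the parental 5637 controls and at 36, 35.3 and 35.1 CPM on neratinib. The groups did not overlap, and PRPS1 fell by 0.91 on the log2 scale (SE 0.06, edgeR adjusted p = 8.3e-09). Its isoenzyme PRPS2 fell less, by 0.51 (SE 0.076), from 90.6 to 95.4 CPM down to 60.5 to 71 CPM. PFAS, the fourth enzyme of the chain, fell by 0.89, PAICS by 0.83, PPAT by 0.80 and ATIC, which closes the ring, by 0.73. PPAT went from 28.7, 24.7 and 26.7 CPM to 14.7, 15.1 and 16.6 CPM, and PAICS from 297, 299 and 283 CPM to 166, 165 and 170 CPM. The SEs of these 2 falls were 0.084 and 0.059, and the drug and control groups of both genes were apart.

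GART, which carries 3 steps of the chain, fell by 0.50. GMPS, which completes GMP after IMP, fell by 0.56 and ADSL, which acts both before and after IMP, fell by 0.47. IMPDH2 and ADSS, the entries to the guanine and adenine branches, fell by 0.19 and 0.20, and IMPDH1 did not pass (log2 -0.19, adjusted p = 0.11). The calls of ADSS and IMPDH2 were lost in some of the 18 alternatives, with 12 and 15 keeping them.

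NME1, a nucleoside diphosphate kinase that gives nucleotides their last phosphate, changed most of the 29. It stood at 142, 145 and 146 CPM in control and 57.1, 61.5 and 55.8 CPM on drug, a fall of 1.33 on the log2 scale (SE 0.081, edgeR adjusted p = 3.4e-09). CTPS1, which makes CTP from UTP, went from 167, 159 and 158 CPM to 79.9, 77.6 and 77.6 CPM, with no overlap, and fell by 1.06 (SE 0.049). Its isoenzyme CTPS2 did not pass, at log2 -0.12 (95% interval -0.27 to 0.02). UMPS, the last enzyme of UMP synthesis, fell by 0.72 and CAD, the large enzyme that starts the ring, by 0.46. DHODH, the mitochondrial step, fell by 0.31, a call kept in 12 of 18 alternatives.

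RRM2, the regulatory subunit of ribonucleotide reductase, stood at 343, 337 and 328 CPM in control and 138, 138 and 142 CPM on drug. It fell by 1.29 on the log2 scale (SE 0.051, edgeR adjusted p = 3.7e-11), and RRM1, the catalytic subunit, by 0.76 (SE 0.058). The ratio of RRM2 to RRM1 per length went from 1.03 to 1.08 in the controls to 0.717 to 0.741 on drug. TYMS, which makes thymidine monophosphate, fell by 0.75, the thymidylate kinase DTYMK by 0.69, thymidine kinase TK1 by 0.50 and the dUTP pyrophosphatase DUT by 0.32. The alternative reductase subunit RRM2B was far lower: the RRM2 to RRM2B ratio per length was 64.2 to 70 in control and 20.7 to 25.7 on drug. Replication genes outside this group moved alongside. Of 20 S phase genes 15 fell and 0 rose, and of 12 mitosis genes all 12 fell, where 47.3% of all genes were called (23.5% lower). In bulk samples fewer cycling cells and less RNA per cell cannot be told apart.

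The pentose phosphate genes took another course. PGLS, the lactonase of the oxidative branch, was at 64.8, 62.9 and 67.4 CPM in parental 5637 controls and at 109, 108 and 95.4 CPM on drug. It was the only member of the 29 to pass as higher in parental 5637, by 0.66 on the log2 scale (SE 0.087, edgeR adjusted p = 1.5e-05). PGD, the 6-phosphogluconate dehydrogenase that makes NADPH, stood at 0.07 (95% interval -0.03 to 0.17) and TALDO1, transaldolase, at -0.01 (95% interval -0.13 to 0.12). RPIA, the isomerase that makes ribose 5-phosphate, went from 22, 23.2 and 22.8 CPM to 15.8, 16.3 and 15.7 CPM and fell by 0.53 (SE 0.074).

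**Figure D2:**
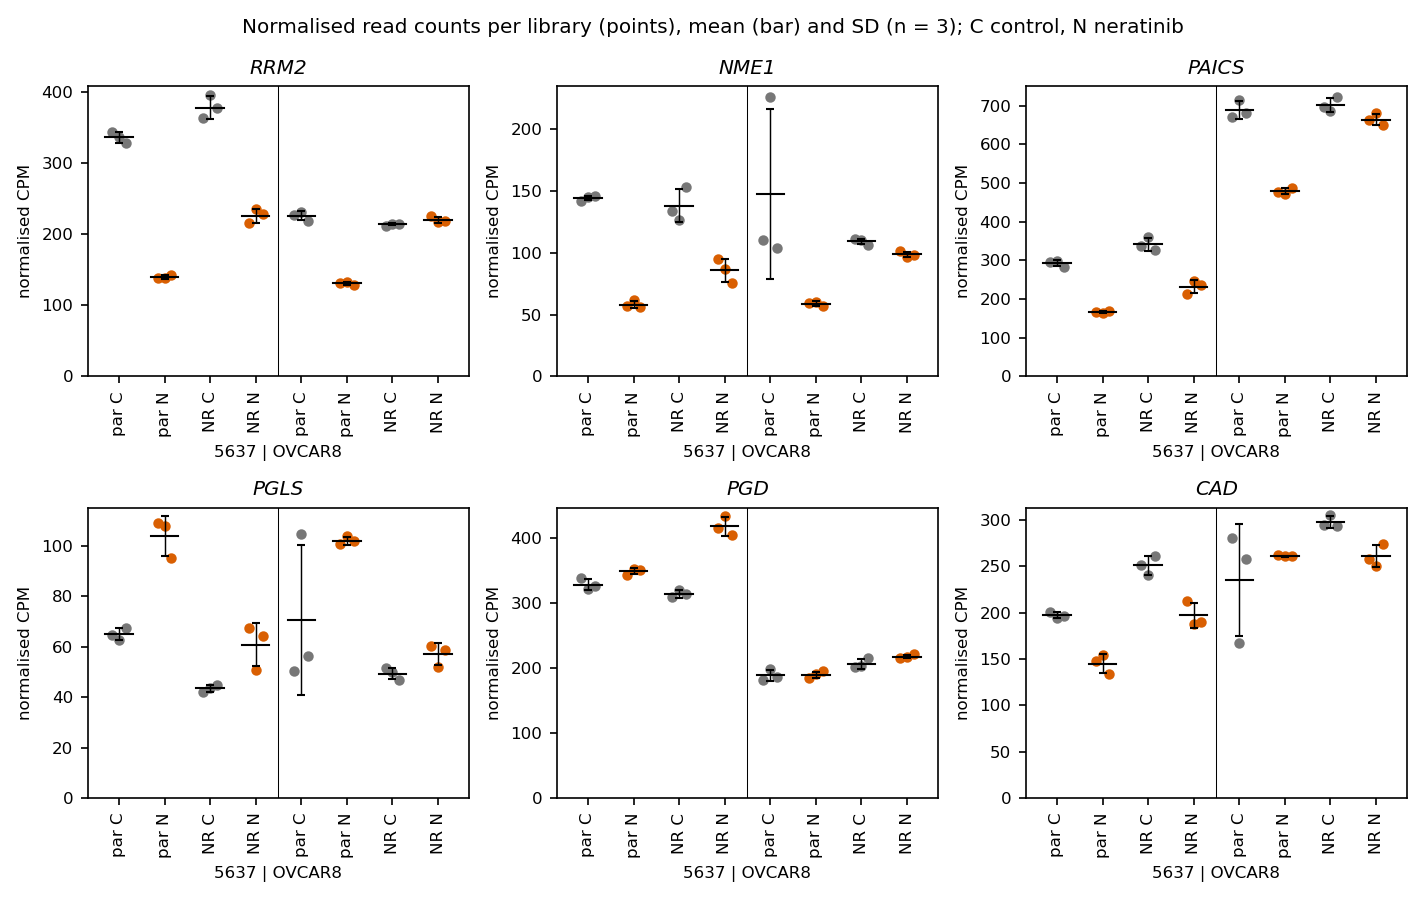
Normalised CPM of 6 members in each of the 24 libraries (points; grey control, orange neratinib), with the group mean and SD (n = 3). In 5637 parental cells RRM2 falls from 328 to 343 CPM down to 138 to 142 CPM while PGLS rises, and 1 OVCAR8 parental control library stands apart for NME1 (226 CPM) and PGLS (105 CPM).

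In parental OVCAR8 cells neratinib lowered 21 of 29 members and raised 1, where 32.5% of 18072 genes were called (16.3% lower, 16.2% higher). The member median was -0.46, against 0.01 for all genes. Of these enzymes 9 of 12 purine, 4 of 6 pyrimidine, all 6 deoxynucleotide and 2 of 5 pentose phosphate members fell. Without parental control replicate 2, 22 fell and 3 rose, where 49.2% of 18537 genes were called. By pathway that was 9 lower and 1 higher for purine, 4 and 1 for pyrimidine, 6 and 0 for deoxynucleotide, and 3 and 1 for pentose phosphate enzymes. Scaled by library size alone, 17 fell and 3 rose, and the median of all genes moves to 0.11, with 3639 genes higher and 2175 lower in place of 2922 and 2946.

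RRM2 stood at 227, 231 and 219 CPM in OVCAR8 control and 132, 133 and 128 CPM on drug, with no overlap, and fell by 0.79 on the log2 scale (SE 0.058, edgeR adjusted p = 2.6e-06). RRM1 fell by 0.77 (SE 0.064), so the RRM2 to RRM1 ratio per length was 0.922 to 1.01 in control and 0.939 to 0.955 on drug. DTYMK had the largest fitted fall of the pathway at 0.86 (SE 0.21), from 74.2, 142 and 71.5 CPM to 52.6, 55.2 and 52.2 CPM. The value of 142 CPM belongs to the library that stands apart, and without it the fall was 0.46 (SE 0.054). TK1 and DUT likewise fell by 0.80 and 0.58 with it and by 0.51 and 0.30 without it. TYMS fell by 0.74 with it and by 0.61 without it. S phase genes fell in 18 of 20 cases and mitosis genes in 11 of 12, where 32.5% of all genes were called (16.3% lower).

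NME1 was at 110, 226 and 104 CPM in the OVCAR8 controls and at 59.7, 60.4 and 56.7 CPM on drug. It fell by 1.33 on the log2 scale (SE 0.23, edgeR adjusted p = 0.0011), and by 0.87 (SE 0.045) without the library at 226 CPM. CTPS1 fell by 0.55 (SE 0.067), from 165, 179 and 158 CPM to 112, 117 and 115 CPM. CTPS2 went the other way, from 13.2, 12.9 and 14.3 CPM to 16.6, 16.7 and 16.5 CPM, and rose by 0.29 (SE 0.076, adjusted p = 0.012). UMPS fell by 0.46 and DHODH by 0.39. CAD did not pass, at 0.14 (95% interval -0.17 to 0.45) and at -0.05 without replicate 2.

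**Figure D3:**
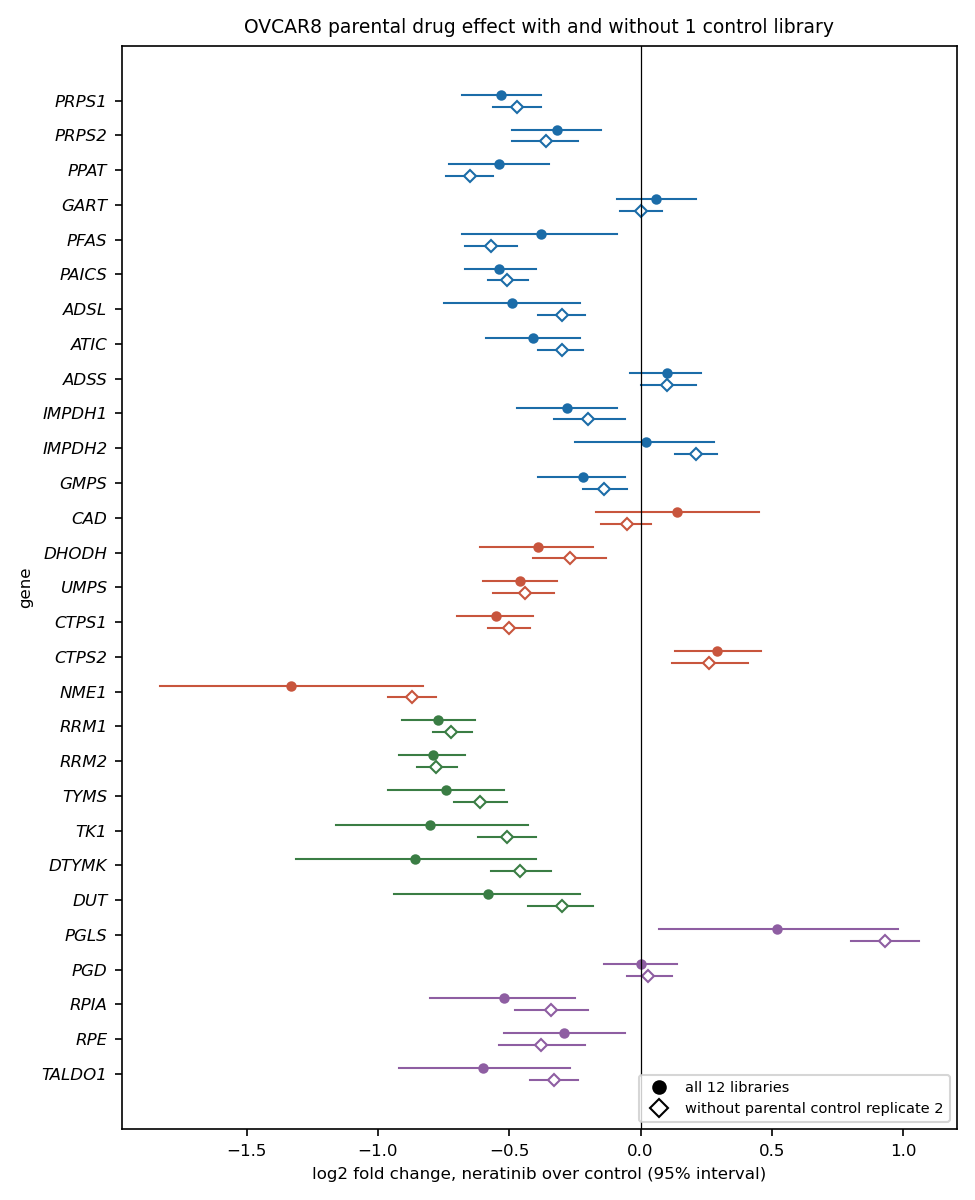
log2 fold change of 29 members on neratinib in parental OVCAR8 (horizontal axis, with 95% intervals), with all 12 libraries (filled circles) and without parental control replicate 2 (open diamonds). Intervals shorten without that library, NME1 moves from -1.33 to -0.87 and PGLS from 0.52 to 0.93.

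Among purine enzymes of OVCAR8, PPAT and PAICS again fell side by side, by 0.54 each (SE 0.088 and 0.062). PPAT was at 83.8, 64.7 and 81.8 CPM in control and 52.8, 53.7 and 52.8 CPM on drug, and PAICS at 670, 716 and 682 CPM and 476, 473 and 487 CPM. PRPS1 fell by 0.53, ADSL by 0.49 (by 0.30 without replicate 2), ATIC by 0.41 and PRPS2 by 0.32. The calls of PFAS (log2 -0.38) and GMPS (log2 -0.22) held in 5 and 6 of 18 alternatives only, and that of IMPDH1 (log2 -0.28) in 12. Without replicate 2 each of them passed as lower, PFAS at -0.57 (SE 0.048), GMPS at -0.14 and IMPDH1 at -0.2. GART did not pass, at 0.06 (95% interval -0.09 to 0.21), with 197, 176 and 205 CPM in control and 199, 202 and 206 CPM on drug. IMPDH2 stood at 0.02 (95% interval -0.25 to 0.28), and without replicate 2 it passed as higher, at 0.21 (SE 0.04).

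The call of PGLS in OVCAR8 turned on 1 library. It stood at 50.3, 105 and 56.4 CPM in control and at 101, 104 and 102 CPM on drug. With all libraries it did not pass (log2 0.52, SE 0.21, edgeR adjusted p = 0.076). Without replicate 2 it rose by 0.93 (SE 0.062, adjusted p = 3.7e-11). RPIA and TALDO1 fell by 0.52 and 0.60 with all libraries, and by 0.34 and 0.33 without it. RPE, the epimerase, did not pass with it (log2 -0.29) and fell by 0.38 without it.

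Set side by side between the lines, the parental drug effect differed for 10 of 29 members, 9 of them higher (a smaller fall or a rise) in OVCAR8, where 10.3% of 20250 genes were called (5.46% higher, 4.83% lower). Without OVCAR8 parental control replicate 2 it was 14 and 1, where 18.6% of genes were called. GART differed by 0.55 (SE 0.085, edgeR adjusted p = 0.00011) and CAD by 0.59 (SE 0.16), or 0.49 and 0.40 without that library. RRM2 differed by 0.48 (SE 0.08) and CTPS1 by 0.50 (SE 0.084). TALDO1 was the member that differed the other way, at -0.60 (SE 0.16), or -0.33 without the library. For RRM1 and TYMS the differences were -0.01 (95% interval -0.20 to 0.17) and 0 (95% interval -0.25 to 0.25). MYC, a known activator of nucleotide genes, fell by 1.16 in parental 5637 and stood at -0.03 in parental OVCAR8, a difference of 1.11 (SE 0.11, adjusted p = 1.7e-07), and its part in these differences was not tested.

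In NR cells fewer members passed than in parental cells of the same line, and the difference itself is tested further on. In 5637 NR, 18 members fell and 3 rose, where 39.5% of genes were called (21.1% lower, 18.4% higher), with a member median of -0.31 against 0 for all genes. Library size alone gave 15 and 4, moving the median of all genes to 0.12 and their split from 3372 higher and 3858 lower to 5016 and 2428. In OVCAR8 NR, 0 of 29 members passed edgeR's test, where 1.39% of genes were called (0.642% higher, 0.747% lower). At an unadjusted p under 0.05 there were 4, DESeq2 called 3, and without OVCAR8 parental control replicate 2 (which enters the shared estimate of spread) edgeR called 7 lower and 3 higher, where 21.3% of genes were called.

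RRM2 in 5637 NR went from 363, 395 and 377 CPM to 216, 235 and 228 CPM and fell by 0.75 (SE 0.051, edgeR adjusted p = 1.5e-08). In OVCAR8 NR it was at 212, 214 and 215 CPM in control and 225, 217 and 219 CPM on drug, with a log2 value of 0.04 (95% interval -0.08 to 0.17). NME1 in 5637 NR went from 134, 126 and 153 CPM to 94.5, 86.8 and 75.5 CPM and fell by 0.69 (SE 0.08). In OVCAR8 NR it was at 111, 110 and 106 CPM and then 101, 96.8 and 98.2 CPM (log2 -0.14, 95% interval -0.64 to 0.35). Other falls in 5637 NR were PRPS1 by 0.65, PPAT by 0.61, CTPS1 by 0.58, PAICS by 0.57 and RPIA by 0.54. TYMS, TK1 and DUT did not pass there, with log2 values of -0.18, -0.13 and 0.02.

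PGD, TALDO1 and PGLS passed as higher in 5637 NR. PGD stood at 309, 321 and 315 CPM in NR control and at 416, 435 and 406 CPM on drug, a rise of 0.40 (SE 0.046, edgeR adjusted p = 5.7e-06). TALDO1 went from 248, 245 and 281 CPM to 337, 305 and 307 CPM and rose by 0.29 (SE 0.058), and PGLS rose by 0.48 (SE 0.088). Other NRF2 target genes, a program that is known to include PGD and TALDO1, rose in 8 of 9 cases in both parental and NR 5637 (47.3% and 39.5% of all genes called) and in 5 of 9 in parental OVCAR8 (32.5%). In OVCAR8 NR 2 rose and 1 fell (1.39%). PGD and TALDO1 did not pass in parental 5637, and TALDO1 fell in parental OVCAR8. The part of this program in the changes of PGD and TALDO1 was not tested.

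**Figure D4:**
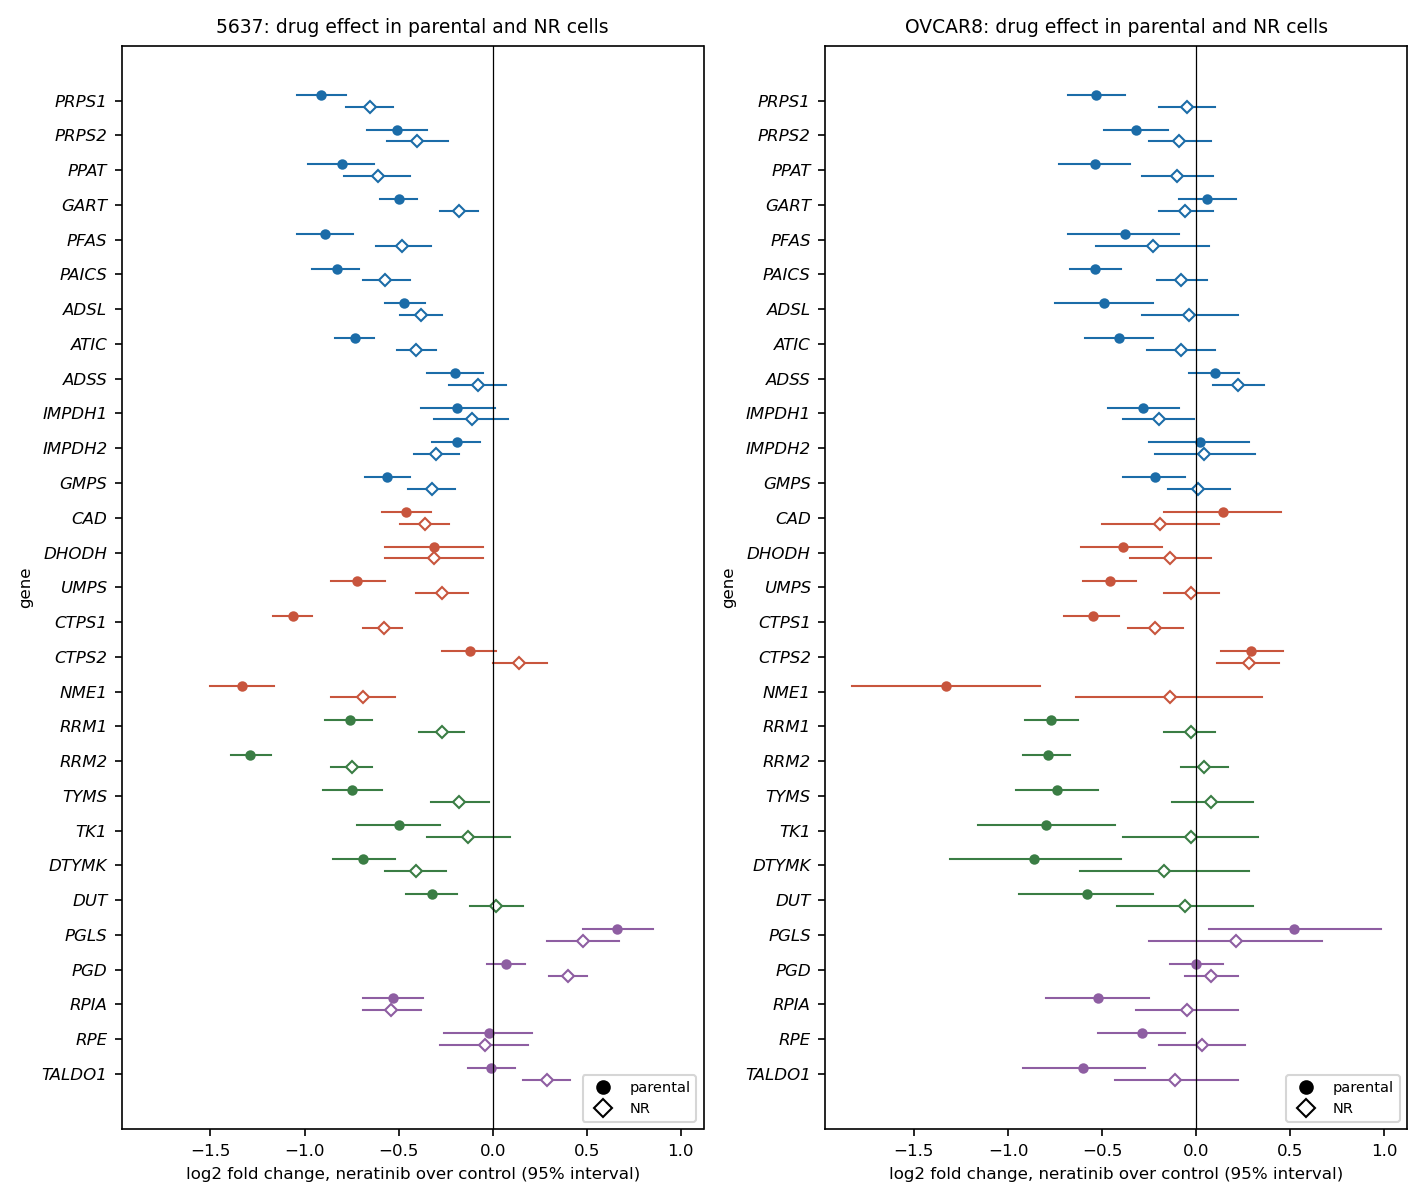
log2 fold change of 29 members on neratinib (horizontal axis, with 95% intervals) in parental cells (filled circles) and NR cells (open diamonds) of 5637 (left) and OVCAR8 (right), coloured by pathway. Most diamonds lie nearer to 0 than their circles, and in OVCAR8 NR the values run from -0.23 to 0.28.

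The drug effect in NR minus that in parental cells was tested as an interaction. In 5637 it was positive for 13 members and negative for 0, where 13.9% of genes were called (7.39% positive, 6.48% negative). The 13 comprised 4 purine, 3 pyrimidine, 4 deoxynucleotide and 2 pentose phosphate enzymes. NME1 led at 0.64 (SE 0.11, edgeR adjusted p = 0.0012), followed by TYMS at 0.57 (SE 0.10), RRM2 at 0.53 (SE 0.072), RRM1 at 0.49 and CTPS1 at 0.48. PFAS at 0.41 led the purine enzymes. PGD at 0.34 and TALDO1 at 0.29 rose in NR cells, whereas the other 11 fell less or did not pass there. RPIA had an interaction of -0.01 (95% interval -0.23 to 0.22). The calls of PAICS and TALDO1 held in 7 and 10 of 18 alternatives. Of 12 mitosis genes all 12 and of 20 S phase genes 13 had a positive interaction.

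In OVCAR8 the interaction was positive for 9 members and negative for 0, where 8.83% of genes were called (4.62% positive, 4.21% negative), and without parental control replicate 2 it was 19 and 2, where 32.8% were called. RRM2 stood at 0.84 (SE 0.082, edgeR adjusted p = 0.00026), TYMS at 0.82, RRM1 at 0.73, PRPS1 at 0.48, PAICS at 0.46 and UMPS at 0.43. NME1 had the largest value at 1.18 (SE 0.32, adjusted p = 0.04), or 0.72 (SE 0.06) without the library, and its call held in 8 of 18 alternatives. PPAT at 0.44 and CTPS1 at 0.33 held theirs in 4 and 5. Without that library PPAT and CTPS1 passed as positive, at 0.54 (SE 0.058) and 0.27 (SE 0.054). PGLS and IMPDH2 were the members that passed as negative without that library, at -0.73 and -0.18. Scaled by library size alone, 7 members were positive, and all genes split into 642 higher and 945 lower in place of 835 and 760.

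The drug effect in NR cells differed between the lines for 9 members, 8 of them higher in OVCAR8, where 9.82% of genes were called (5.04% higher, 4.78% lower). RRM2 differed by 0.78 (SE 0.08), PRPS1 by 0.59, PPAT by 0.51, PAICS by 0.48 and CTPS1 by 0.35, and PGD by -0.34. RPIA differed by 0.47, a call kept in 12 of 30 alternatives. Without OVCAR8 parental control replicate 2 the counts were 17 higher and 2 lower, where 19.9% of genes were called. Library size alone gave 4 and 2, with all genes at 671 higher and 1398 lower in place of 1020 and 968.

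The resistant state itself was compared in control medium. In 5637 NR, 15 members were higher and 4 lower than in parental cells, where 56.5% of genes were called (28.4% higher, 28% lower), so the share of members called (65.5%) lay near the background. RPIA was at 33.3, 36.4 and 35.1 CPM in NR against 22, 23.2 and 22.8 CPM, higher by 0.60 (SE 0.073). GART was higher by 0.52 (SE 0.046), with 341, 337 and 348 CPM against 237, 239 and 231 CPM. TYMS was higher by 0.47, PRPS1 and TK1 by 0.44 each, RRM1 by 0.43 and CTPS1 by 0.40. Those lower were DUT at log2 -0.67 (SE 0.065), from 40.3, 38.3 and 41.2 CPM to 24.6, 26.1 and 25.7 CPM, PGLS at -0.60 (SE 0.088), CTPS2 at -0.38 and ADSS at -0.19. Among the deoxynucleotide enzymes DUT was lower while TYMS, TK1 and RRM1 were higher and RRM2 stood at log2 0.15.

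In OVCAR8 NR against parental cells in control medium 2 members were higher and 2 lower, where 9.84% of genes were called (4.94% higher, 4.91% lower). PRPS1 stood at 79, 81.6 and 79.9 CPM in NR and 97.3, 109 and 97.9 CPM in parental cells, lower in NR with no overlap (log2 -0.34, SE 0.068, edgeR adjusted p = 0.0075). TYMS was lower (log2 -0.40, SE 0.10) and CTPS1 (log2 0.28) and GART (log2 0.26) higher, the last call kept in 8 of 18 alternatives. Without parental control replicate 2, 7 were higher and 5 lower, where 22.8% of genes were called. Set against 5637, the effect of the resistant state differed for 9 members, 8 of them lower in OVCAR8, where 32.9% of genes were called (18.1% lower, 14.8% higher), and without that library 4 were higher and 10 lower, where 39.1% were called. TK1 differed by -0.95 (SE 0.2), TYMS by -0.89, PRPS1 by -0.80, RPIA by -0.79, TALDO1 by -0.75 (-0.49 without that library) and RRM1 by -0.55, and CTPS2 by 0.47.

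The 2 states were also compared under the drug. In 5637, 21 members were higher and 2 lower, where 58% of genes were called (28.8% higher, 29.2% lower). TYMS stood at 72, 82 and 79.6 CPM in NR and 37.2, 36.6 and 38.5 CPM in parental cells on neratinib, higher by 1.05 (SE 0.073, edgeR adjusted p = 7.3e-09). RRM1 was higher by 0.92, CTPS1 by 0.88, GART by 0.84, TK1 by 0.81 and RRM2 by 0.68. PGLS and DUT were lower, at -0.79 and -0.32. In OVCAR8, 14 were higher and 1 lower, where 31% of genes were called (14.6% higher, 16.4% lower), and without parental control replicate 2 it was 22 and 1, where 55.5% were called. RRM2 was higher by 0.76 (SE 0.058), NME1 by 0.75 (SE 0.23), PPAT by 0.74 and RRM1 by 0.64, and PGLS was lower, at -0.83.

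Against parental cells in control medium, resistant cells on neratinib had 18 members lower and 7 higher in 5637, where 59.4% of genes were called (30.3% lower, 29.1% higher). NME1 was lower (log2 -0.78), as were DUT (-0.65), RRM2 (-0.60) and PFAS (-0.57), whereas TALDO1 (0.65), GART (0.34), PGD (0.32), TK1 (0.31) and TYMS (0.30) were higher. Scaled by library size alone it was 8 and 8, and all genes split into 6850 higher and 4142 lower in place of 5334 and 5539, with their median at 0.15. In OVCAR8 this comparison called 2 members, where 13.9% of genes were called (6.5% higher, 7.35% lower): PRPS1, lower (log2 -0.39), and CTPS2, at 16.8, 18.1 and 17.8 CPM against 13.2, 12.9 and 14.3 CPM, higher by 0.38 (SE 0.076). Without parental control replicate 2, 4 were higher and 7 lower, where 27.1% were called.

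The lines differed in the proportions of isoenzymes before any drug. Between the parental controls 11 members were higher in OVCAR8 and 12 lower, where 72% of 20250 genes were called (36.8% higher, 35.1% lower), so the members lay near the background, and without replicate 2 it was 10 and 16, where 72.8% were called. IMPDH1 was at 165, 160 and 159 CPM in 5637 and 29.7, 34.9 and 30.2 CPM in OVCAR8 (log2 -2.35, SE 0.1, edgeR adjusted p = 5.6e-16). IMPDH2 was at 178, 168 and 161 CPM in 5637 and 489, 726 and 527 CPM in OVCAR8 (log2 1.78, SE 0.099). The 2 enzymes catalyse the same step to guanine nucleotides, and their groups did not overlap in either case. Per length the IMPDH2 to IMPDH1 ratio was 1.34 to 1.42 in the 5637 parental controls and 21.7 to 27.4 in those of OVCAR8, and over all 24 libraries it stayed within 1.04 to 1.48 and 21.7 to 31 in the respective lines.

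**Figure D5:**
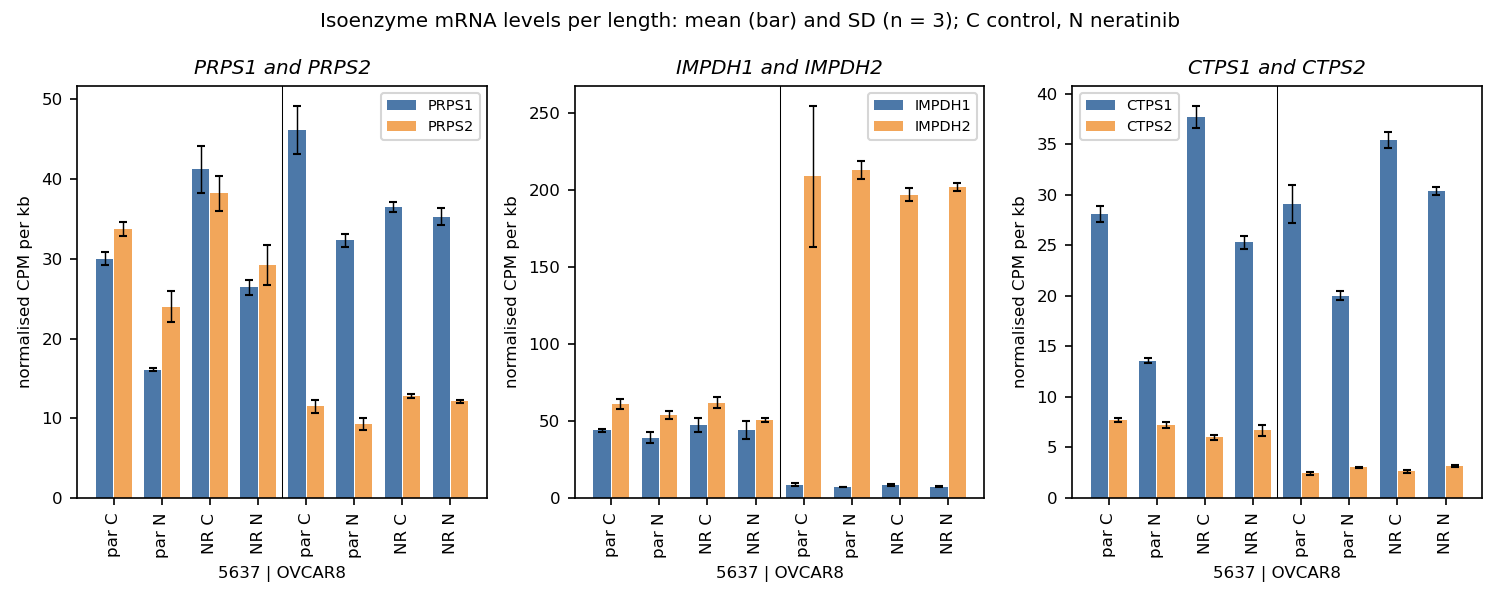
Normalised CPM per kb of gene length for 3 isoenzyme pairs in the 8 groups (bars, mean; error bars, SD, n = 3; C control, N neratinib). IMPDH2 far exceeds IMPDH1 in OVCAR8 (209 against 8.63 CPM per kb in parental control), PRPS1 exceeds PRPS2 in every OVCAR8 group, and CTPS1 exceeds CTPS2 in every group.

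PRPS2 was lower in OVCAR8 (log2 -1.55) and PRPS1 higher (0.62), so PRPS1 to PRPS2 per length was 0.881 to 0.906 in 5637 and 3.56 to 4.57 in OVCAR8 parental control. For the CTP synthetases the total rests on CTPS1, which did not pass between the lines (log2 0.05, 95% interval -0.07 to 0.17), whereas CTPS2 was lower in OVCAR8 (log2 -1.66). The CTPS1 to CTPS2 ratio went from 3.54 to 3.70 in parental 5637 control to 1.80 to 2.02 on drug, and from 10.6 to 13.3 down to 6.47 to 6.73 in OVCAR8. In NR control it was 6.11 to 6.54 in 5637 and 13.1 to 14 in OVCAR8. TK1 was higher in OVCAR8 by 1.85 (SE 0.15; 1.56 without replicate 2), PPAT by 1.52, TYMS by 1.46 and PAICS by 1.23, while RPE (-1.30), PGD (-0.80) and RRM2 (-0.57) were lower.

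Neighbouring genes of the pathway were counted from lists of salvage and supply enzymes. Of 36 salvage and nucleotide handling genes, 19 fell and 4 rose in parental 5637 (median -0.25) and 15 fell and 2 rose in parental OVCAR8 (median -0.23), where 47.3% and 32.5% of all genes were called. Without OVCAR8 parental control replicate 2 the OVCAR8 counts were 17 and 8 (median -0.11), where 49.2% of genes were called. NT5E, the ectoenzyme that frees adenosine, fell by 2.09 and 0.75, and PNP, purine nucleoside phosphorylase, by 1.37 and 1.01. The nucleoside carrier SLC29A1 fell by 1.12 in 5637, and mitochondrial thymidine kinase TK2 rose by 0.82 in OVCAR8. Of 5 further pentose phosphate genes, 3 fell and 2 rose in each line. TIGAR, which steers glucose into the pathway, fell by 0.79 and 0.90, and H6PD, an oxidative enzyme of the endoplasmic reticulum, rose by 0.72 and 1.56.

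Genes of the folate cycle and serine synthesis, which supply carbon to purines and thymidylate, moved in both directions. Of 11, 6 rose and 4 fell in parental 5637 (median 0.75), where 47.3% of all genes were called. In parental OVCAR8 7 rose and 4 fell (median 1.05), where 32.5% were called. PSAT1, of serine synthesis, rose by 2.64 and 2.26, and MTHFD2, of the mitochondrial folate cycle, by 1.71 and 1.14. The cytosolic MTHFD1 fell by 0.64 and 0.47, and the mitochondrial folate carrier SLC25A32 by 0.61 and 0.54. The mRNA of ATF4, the known activator of the serine genes, rose by 1.04 and 0.63, and its part in these changes was not tested. In OVCAR8 NR 5 of the 11 rose on neratinib and 0 fell, with PSAT1 at 1.13, where 1.39% of genes and 0 members were called. When the library that stands apart was left out, 8 rose and 1 fell, where 21.3% of genes and 10 members were called.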

How the data were processed

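The 24 libraries were stranded TruSeq mRNA, sequenced from both ends (HiSeq3000), per the labels' protocols. The submitters' processing notes name hg19, the aligner STAR 2.5.3a, the counter featureCounts 1.15.2, FastQC and DESeq2 1.18.1, with no order of steps and no strand setting. The authors deposited whole-number read counts for 39786 genes with length, position and symbol, and no sample column was left unused. In R 4.3.3, edgeR 4.0.16 filtered (filterByExpr), scaled (TMM) and tested the counts by quasi-likelihood F-tests, for 16 comparisons. A fit of 1 line used its 12 libraries in 4 groups, which left 8 residual degrees of freedom. Contrasts across lines used all 24 libraries. A gene was called at a Benjamini-Hochberg adjusted p under 0.05, taken over every gene in the fit. Printed CPM carry the TMM factors of the 24-library fit. Intervals are at 95%. Alternatives were DESeq2 1.42.0, its size factors, library size only, no filter, 1 CPM in 3 libraries, a replicate block, and each library left out in turn. Counts were simulated with known changes in a single group. All genes had the same dispersion, 0.01 in 5637 and 0.02 in OVCAR8 and across the lines. In the 5637 drug comparison (17761 genes), 57.9% of 107 1.5-fold and 86.2% of 87 2-fold changes were found. In OVCAR8 (17729 genes) it was 35.4% of 99 and 79.6% of 98. For their difference (19189 genes) it was 5.43% of 92 and 36.6% of 101. In the real data far more genes were called and spread varied by gene, so these shares do not give the power there. The members and gene lists were chosen with earlier results of these data known. Values in full were given for the called member with the largest change in each pathway and comparison, for called members against the majority of their pathway, and for isoenzyme pairs, and other members by range, count or size. Of other lists, up to 3 called genes per direction with at least 5 CPM were eligible. Promoters come from RefSeq GRCh38.p14, whereas gene positions are hg19 as deposited. Some genes of these pathways are not reported here.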

Additional observations from a re-analysis of the deposited data

Results flagged for a closer look

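Differences between groups under the same contrast were tested, and those that passed are listed with their size. The drug effect differed between NR and parental 5637 for 13 of 29 members (13.9% of all genes were called), with PFAS at 0.41, NME1 at 0.64, TYMS at 0.57 and PGD at 0.34 leading their pathways on the log2 scale. In OVCAR8 it differed for 9 (8.83% of genes), led by PRPS1 at 0.48, NME1 at 1.18 and RRM2 at 0.84. The parental drug effect differed between the lines for 10 members (10.3% of genes), led by GART at 0.55, CAD at 0.59, RRM2 at 0.48 and TALDO1 at -0.60. The drug effect in NR cells differed between the lines for 9 (9.82% of genes), led by PRPS1 at 0.59, CTPS1 at 0.35, RRM2 at 0.78 and RPIA at 0.47. The effect of the resistant state in control medium differed for 9, or 31% of members, near the 32.9% of all genes called, led by PRPS1 at -0.80, CTPS2 at 0.47, TK1 at -0.95 and RPIA at -0.79. Doses differed between the lines in the drug comparisons. Without OVCAR8 parental control replicate 2, NME1 in OVCAR8 stood at 0.72, CAD at 0.40, TALDO1 in the parental drug difference at -0.33 and TK1 at -0.66, each still past the threshold of edgeR's adjusted p.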

How the results depend on the processing

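Of 1530 alternative values for the 69 member results named by the rule, 1464 kept direction and call, 66 lost the call and 0 changed sign. The rule took only members already called, with the largest change of a pathway or against its majority. Their calls were thus apt to hold, and these counts do not describe other members. The drug in OVCAR8 NR, with no called member, gave none of these results. Apart from leaving out libraries, counts of members called moved by more than 1.5 times in few settings, and the cause was not tested. Leaving out 1 library moved them so far in 5 cases for OVCAR8 NR against parental in control. It did so in 3 cases each for OVCAR8 NR on drug against parental control and for the OVCAR8 interaction. The number of all genes called moved so far in 10 cases each for the drug in OVCAR8 NR and for the OVCAR8 interaction. Library size alone gave 16 for 5637 NR on neratinib against parental control (25). DESeq2 gave 3 for the drug in OVCAR8 NR (0) with 800 genes in all (251), 7 for OVCAR8 NR against parental control cells (4), 8 for OVCAR8 NR on neratinib against parental control (2), and 2520 genes for the OVCAR8 interaction (1595). That comparison of 2 gave 7 with no filter and 6 with 1 CPM in 3 libraries. With no filter the parental drug difference gave 6 (10) and the NR drug difference 5 (9). Leaving out 1 library at a time gave 22 to 25 members (7407 to 9464 genes) for the drug in 5637 parental, 20 to 24 members (6260 to 7482 genes) for the drug in 5637 NR, 16 to 19 members (9423 to 11019 genes) for 5637 NR against parental in control, 22 to 25 members (9810 to 10855 genes) for 5637 NR against parental on drug, 21 to 25 members (9932 to 11085 genes) for 5637 NR on drug against parental control, 10 to 16 members (1840 to 3341 genes) for the 5637 interaction. In OVCAR8 it gave 18 to 25 members (4207 to 9117 genes) for the drug in OVCAR8 parental, 0 to 10 members (43 to 3950 genes) for the drug in OVCAR8 NR, 1 to 12 members (993 to 4225 genes) for OVCAR8 NR against parental in control, 10 to 23 members (3933 to 10286 genes) for OVCAR8 NR against parental on drug, 2 to 11 members (1199 to 5030 genes) for OVCAR8 NR on drug against parental control, 5 to 21 members (790 to 6076 genes) for the OVCAR8 interaction. Between the lines it gave 21 to 26 members (14003 to 15160 genes) for the lines in control, 6 to 15 members (1550 to 3869 genes) for the parental drug difference, 6 to 19 members (1486 to 4141 genes) for the NR drug difference, 7 to 14 members (5976 to 8136 genes) for the difference in state. Every highest count that involves OVCAR8 came without OVCAR8 parental control replicate 2.
Replicate numbers did not pair the samples: 3 of 18 same-number correlations in 5637 (-0.16 to 0.13) and 1 of 18 in OVCAR8 (-0.12 to 0.11) were over 0.1, and 3 and 9 samples correlated best with their own number. With the replicate block, members called were 23 for the drug in 5637 parental, 21 for the drug in 5637 NR, 19 for 5637 NR against parental in control, 23 for 5637 NR against parental on drug, 25 for 5637 NR on drug against parental control, 12 for the 5637 interaction, 20 for the drug in OVCAR8 parental, 0 for the drug in OVCAR8 NR, 3 for OVCAR8 NR against parental in control, 15 for OVCAR8 NR against parental on drug, 2 for OVCAR8 NR on drug against parental control, 6 for the OVCAR8 interaction, 21 for the lines in control, 9 for the parental drug difference, 6 for the NR drug difference, 10 for the difference in state, and the genes called for the drug in OVCAR8 NR went from 251 to 98. The lowest counts in any library were 325 for CTPS2, 367 for DHODH, 378 for RPE, 528 for RPIA and 558 for PPAT.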
